A study of Drosophila melanogaster with 24 samples.

Results

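The insect cuticle is a coat of chitin fibres and proteins that the epidermis and the tracheal cells secrete to the outside. Most of its structural proteins belong to the CPR family, which shares a chitin-binding stretch called the Rebers and Riddiford consensus. In Drosophila melanogaster these genes are named Cpr followed by a chromosome band, or carry the older names Lcp (larval cuticle protein), Ccp84 (a cluster of cuticle proteins) and Acp65A (adult cuticle protein). The embryo lays down its first cuticle late in embryogenesis, and each larval moult replaces it. The genes are therefore known as markers of epidermal differentiation and of moulting.

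All genes whose symbol starts with Cpr and a digit, Lcp, Ccp84 or Acp65A were taken, which gave 95 genes of 17895 in the larval table. Of these, 84 stood among the 10889 genes of the embryo table, and the other 11 (Cpr5C, Cpr11A, Cpr11B, Cpr12A, Cpr23B, Cpr30B, Cpr30F, Cpr31A, Cpr35B, Cpr57A and Lcp1Psi) were not analysed here in embryos. The genes lie on chromosome arms 3L (47 genes), 2R (27), 3R (12), 2L (5) and X (4). Many stand in tandem clusters. The largest is the 65A cluster of 19 Lcp65A, Cpr65A and Acp65A genes at chr3L:6130386-6161589, and the 7 Ccp84 genes lie at chr3R:6686728-6704903 (BDGP6.54 annotation). Pairs of near-identical copies (Lcp65Ab1 and Lcp65Ab2, Lcp65Ag1 and Lcp65Ag2, Cpr65Ax1 and Cpr65Ax2, Cpr67Fa1 and Cpr67Fa2) can share reads, so the level of each single copy is uncertain. Lcp65Ag3 and Cpr57A were listed at 0 in each sample in which they were measured.

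The study compared sima mutants with controls. Sima is the fly counterpart of HIF-1 alpha, which turns on genes when oxygen is low. Mutants carried the sima alleles 1 and 20 (Sima 1/20), while controls were heterozygous, with allele 1 and a wild-type copy (Sima 1/+), so allele 1 is present in both genotypes. Whole embryos were collected 8-12, 12-16 and 16-20 h after egg laying and whole larvae at 60 h, with 3 samples in each of the 8 groups. The labels do not say whether the samples came from separate collections. The p-values therefore set each difference against a spread between samples that may be technical.

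Levels are the authors' FPKM values, and fold changes are of log2(FPKM + 1), so the change of a low gene is understated. The estimated FPKM denominator was 6600700 to 8111800 fragments in 16-20 h mutants, against 8706100 to 9569000 in 16-20 h controls, and 10078200 to 15196000 in the other groups. Within a group, samples correlated across genes with Pearson's r of 0.961 to 0.993. The mutated gene sima stood at 2.56, 2.63 and 2.55 FPKM in 12-16 h mutants, against 3.11, 3.20 and 3.23 FPKM in 12-16 h controls, and its mutant values lay below the control values at each stage. Its log2 fold change was -0.22 at 12-16 h (limma adjusted p = 0.0238). The epidermal transcription factor grh was measured at 2.36 to 3.25 FPKM in 12-16 h mutants and 3.18 to 3.42 FPKM in 12-16 h controls. Of the 5 markers listed for whole embryos, the 3 in the embryo table (grh, btl and srp) passed no genotype test in embryos.

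The summed level of the cuticle genes grew through embryogenesis in both genotypes. At 8-12 h the 84 genes summed to 33.3, 51.8 and 51.6 FPKM in the mutants and to 40.7, 84.6 and 29.8 FPKM in the controls. At 12-16 h the sums were 6892, 6227 and 4617 FPKM in the mutants and 2356, 2155 and 4537 FPKM in the controls. At 16-20 h they reached 40139, 39138 and 37523 FPKM in the mutants and 46371, 47663 and 49378 FPKM in the controls. At 8-12 h the groups overlapped, at 12-16 h each mutant sum lay above the controls, and at 16-20 h each lay below them. Control replicate 3 at 12-16 h stood apart from the other 2 controls, just below the lowest mutant.

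**Figure D1:**
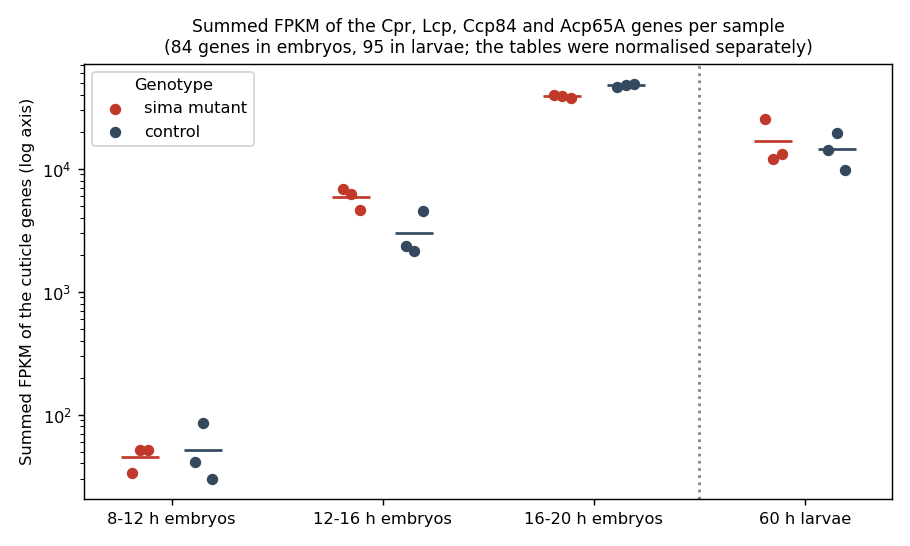
Summed FPKM of the cuticle genes in each sample on a log axis, by stage, with sima mutants left of controls and lines at group means (n = 3). The sums grow by orders of magnitude between 8-12 h and 16-20 h, and the mutant points lie above the control points at 12-16 h and below them at 16-20 h.

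At 16-20 h these genes held 11.8% to 13.0% of the summed FPKM of the embryo table's genes in the mutant samples. In the control samples they held 15% to 15.6%. The embryo table holds 10889 genes, against 17895 in the larval table, so these are not shares of all transcripts. Lcp65Ag1 and Lcp65Ag2 alone made up 6.48% ± 0.510 of that summed FPKM in mutants and 8.05% ± 0.214 in controls (SD, n = 3). These Lcp65A genes encode larval cuticle proteins, and they were the highest members both in 16-20 h embryos and in larvae. Lcp65Ag1 had 11206, 10471 and 10828 FPKM in 16-20 h mutants and 13199.6, 13376 and 13746 FPKM in 16-20 h controls. In whole animals, fewer cells that make cuticle and less RNA per such cell cannot be told apart.

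The filter on low values (at least 1 FPKM in at least 3 samples of the table) left 67 of the 84 genes for testing in embryos and 60 of the 95 in larvae. A gene could pass it through the group in which it was high. The counts below therefore describe the tested genes and are set beside the share of all tested genes that were called.

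Between 8-12 h and 12-16 h, 55 of the 67 tested genes rose in mutants and 45 rose in controls, and 0 fell in either genotype. Of all 6784 genes tested, 64.9% were called in mutants (35.8% higher, 29.0% lower) and 68.1% in controls (36.0% higher, 32.1% lower). At 8-12 h 9 to 17 of the 84 cuticle genes reached 1 FPKM in control samples and 10 to 13 in mutant samples. Few of them therefore had room to fall. Between 12-16 h and 16-20 h, 56 of the 67 rose and 4 fell in mutants, and 58 rose and 4 fell in controls, where 63.9% of all genes were called in mutants (35.8% higher, 28.1% lower) and 67.8% in controls (38% higher, 29.7% lower). The median change of the 67 genes was 3.03 on the log2 scale in mutants and 1.66 in controls over the first interval. Over the second interval it was 2.29 in mutants and 2.96 in controls. Over the 84 genes without the filter, the first interval had medians of 1.64 in mutants and 0.73 in controls. The second had 1.46 in mutants and 1.82 in controls.

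The onset and the peak differed from gene to gene. Of the genes with a group mean of at least 1 FPKM, 59 were highest at 16-20 h in mutants, 4 at 12-16 h and 2 at 8-12 h, against 62, 6 and 1 in controls. Cpr65Ea, a chitin-binding family member, was the highest member at 12-16 h. Mutant embryos held 0, 1.76 and 1.46 FPKM of it at 8-12 h, 1643, 1444 and 1009 FPKM at 12-16 h and 2313, 2369 and 2191 FPKM at 16-20 h. In controls the same gene was at 0 in all 3 samples at 8-12 h, at 557, 589 and 958 FPKM at 12-16 h and at 2208, 1981 and 1992 FPKM at 16-20 h. Its samples did not overlap between consecutive stages in either genotype.

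A small set rose early and fell late. Cpr66D had 48.5, 59.2 and 39.0 FPKM in 12-16 h mutants and 14.6, 15.9 and 17.7 FPKM in 16-20 h mutants, against 19.8, 22.1 and 32.6 FPKM in 12-16 h controls and 6.57, 7.30 and 7.14 FPKM in 16-20 h controls. The later samples lay below the earlier ones in both genotypes. Its change between these stages was -1.53 in mutants (limma adjusted p = 2.26e-06) and -1.66 in controls (limma adjusted p = 6.61e-07). Cpr66Cb and Cpr65Eb took the same course, with changes of -0.99 and -1.28 in mutants and -1.40 and -1.39 in controls (limma adjusted p at most 0.000741). Cpr78E, the highest member at 8-12 h, was the remaining gene that fell in both genotypes. It held 4.45, 5.61 and 5.18 FPKM in 8-12 h mutants and 4.37, 6.13 and 4.42 FPKM in 8-12 h controls, and had 1.72, 3.96 and 1.36 FPKM in 16-20 h mutants and 2.61, 2.58 and 1.38 FPKM in 16-20 h controls. The genotypes overlapped at both of these stages.

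Other genes came on late. Lcp65Aa had 2.80, 2.66 and 1.19 FPKM in 12-16 h mutants, against 0, 0 and 0.991 FPKM in 12-16 h controls, and Cpr49Af had 1.17, 1.75 and 0.980 FPKM in the mutants, against 0.360, 0.178 and 0.534 FPKM in the controls. By 16-20 h Lcp65Aa had 34.5, 26.1 and 25.4 FPKM in mutants and 57.2, 52.1 and 53.5 FPKM in controls. For both genes the mutants lay above the controls at 12-16 h and, as given further on, below them at 16-20 h. Acp65Aa, named for the adult cuticle, was measured at 27.4, 23.9 and 27.3 FPKM in 16-20 h mutants and 24.9, 21.7 and 23.3 FPKM in 16-20 h controls, which overlapped.

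**Figure D2:**
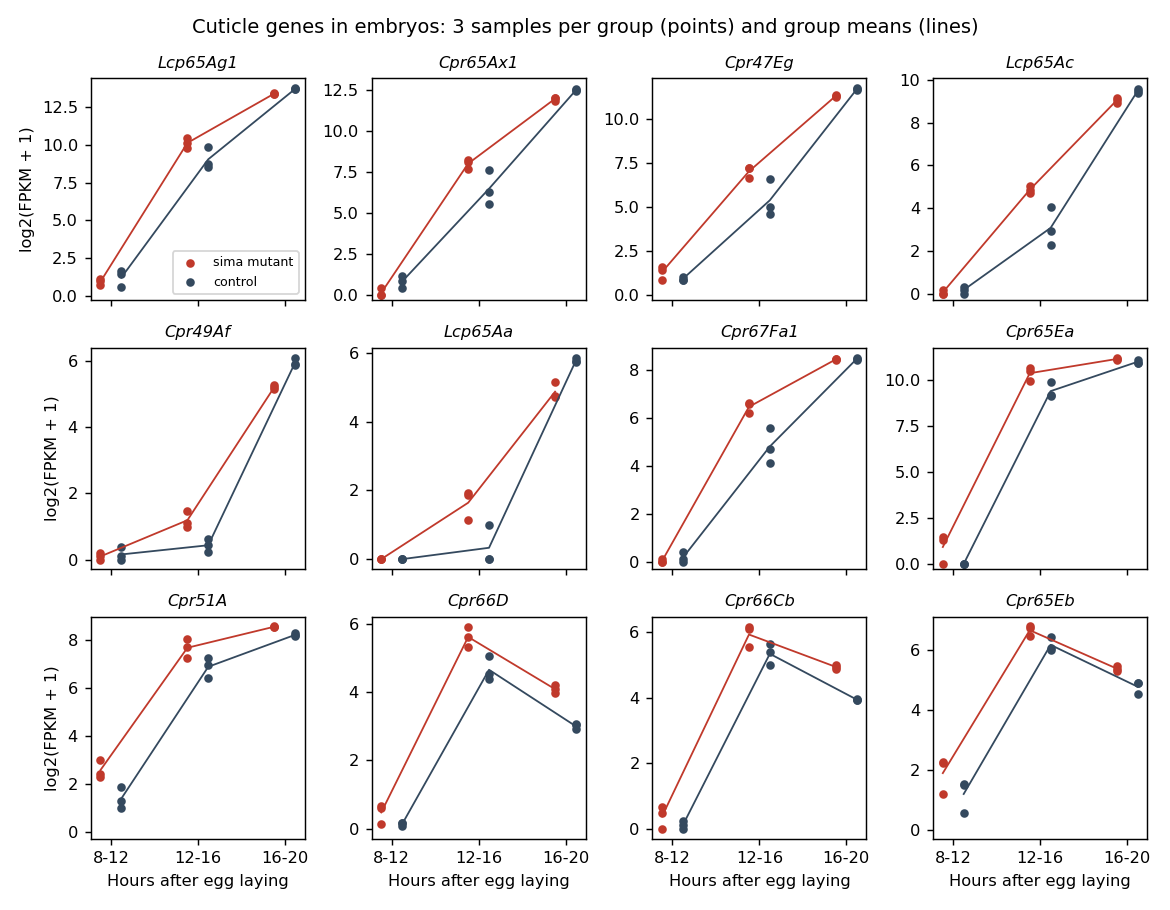
Level of 12 cuticle genes as log2(FPKM + 1), in hours after egg laying, with a point for each of 3 samples and lines through the group means (red, sima mutant; dark blue, control; each panel has its own vertical scale). Most genes climb at each stage, Cpr66D, Cpr66Cb and Cpr65Eb drop at 16-20 h, and at 12-16 h most mutant points lie above most control points.

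At 8-12 h, when most of the genes were near 0, only 2 of the 67 tested genes differed between genotypes, and both rose. Among all genes tested, 5.63% were called (2.54% higher, 3.10% lower). Cpr51A had 3.92, 7.0 and 4.32 FPKM in mutants and 0.984, 1.44 and 2.64 FPKM in controls. Ccp84Ac, a gene of the Ccp84 cluster, had 1.01, 2.03 and 4.23 FPKM in mutants and 0.332, 0.649 and 0.385 FPKM in controls. In both genes the lowest mutant lay above the highest control. Their log2 fold changes were 1.19 (SE 0.25, limma adjusted p = 0.0148) for Cpr51A and 1.13 (SE 0.25, limma adjusted p = 0.0209) for Ccp84Ac. Both calls were lost without control replicate 1 (adjusted p 0.0883 and 0.0930) or mutant replicate 2 (0.0832 and 0.0646) in the limma fit. In it Cpr51A was also lost without control replicate 2 (adjusted p = 0.0658), and Ccp84Ac without control replicate 3 (0.0520) or mutant replicate 3 (0.0577). Neither passed in the fit to the 6 samples of that stage alone (limma adjusted p = 0.140 for Cpr51A and 0.185 for Ccp84Ac).

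Others among the highest genes at that stage did not pass the test. Lcp65Ab1 had 0.368, 0.922 and 0.195 FPKM in 8-12 h mutants and 3.97, 16.3 and 0.210 FPKM in 8-12 h controls, and Lcp65Ab2, its copy, had 0.365, 0.915 and 0.194 FPKM in mutants and 3.95, 16.2 and 0.208 FPKM in controls. Control replicate 2 was the highest sample for both. Cpr78Cb had 3.82, 4.83 and 5.23 FPKM in mutants and 4.09, 3.75 and 4.04 FPKM in controls, which overlapped.

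At 12-16 h, 40 of the 67 tested genes rose in the mutants and 0 fell, and 31.7% of all genes tested were called, 18% as higher and 13.6% as lower. With quantile normalization 36 rose and Cpr78E, Cpr47Ef and Lcp3 fell, and with median centring 39 rose and Cpr78E fell. The median log2 fold change was 0.92 over the 67 genes, 0.63 over the 84 genes without the filter, and 0.02 over all genes tested. Quantile normalization moved the all-gene median by -0.11, and relative to it the 67 genes stood 0.91 higher. In 28 of the 40 the log2 fold change was at least 1. Values did not overlap and were higher in mutants for 35 of the 67 (21.1% of all genes) and lower for 2 (19.8% of all genes).

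The largest rises at 12-16 h were in members of several clusters. Lcp65Ac, a larval cuticle protein gene of the 65A cluster, had 27.8, 31.5 and 25.0 FPKM in mutants and 6.56, 3.79 and 15.5 FPKM in controls. Its log2 fold change was 1.78 (SE 0.29, limma adjusted p = 0.000621). Cpr67Fa1 had 95, 96.3 and 72.3 FPKM in mutants and 25.5, 16.5 and 47.0 FPKM in controls (log2 fold change 1.65, SE 0.25, limma adjusted p = 0.000367). In both genes control replicate 3 was the highest control and still lay below the lowest mutant. Its copy Cpr67Fa2 had 79.6, 82.3 and 58.9 FPKM in mutants and 18.1, 13.1 and 37.4 FPKM in controls, which gave 1.76 on the log2 scale (SE 0.26, limma adjusted p = 0.000335).

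Cpr47Eg, among the highest members later, had 148, 149.6 and 99.6 FPKM in 12-16 h mutants and 31.0, 22.9 and 94.8 FPKM in 12-16 h controls (log2 fold change 1.65, SE 0.36, limma adjusted p = 0.00350). Cpr65Ec had 59.4, 58.9 and 51.0 FPKM in mutants and 20.1, 8.86 and 35.3 FPKM in controls (log2 fold change 1.55, SE 0.30, limma adjusted p = 0.00193). Cpr65Ax1 had 307, 276 and 204 FPKM in mutants and 76.9, 46.2 and 196 FPKM in controls (log2 fold change 1.53, SE 0.36, limma adjusted p = 0.00515). In Cpr47Eg and Cpr65Ax1 control replicate 3 came close to mutant replicate 3, and the other 2 controls were far below.

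By cluster, 6 of 7 Ccp84 genes rose at 12-16 h, where 18% of all genes were higher. Log2 fold changes ran from 0.67 to 1.43 over the Ccp84 cluster. In the 65A cluster 9 of 15 tested genes rose, and fold changes ran from -0.05 to 1.78. In the 49A cluster 3 of 6 rose, in the 47E cluster 2 of 5, and of Lcp1 to Lcp4, the larval cuticle protein genes on arm 2R, only Lcp2 rose. Lcp3 went the other way without passing the threshold, with 1.43, 0.497 and 0.631 FPKM in mutants and 4.08, 2.14 and 1.64 FPKM in controls (log2 fold change -0.94, limma adjusted p = 0.0766).

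Among the highest members at that stage, Cpr65Ea rose by 0.98 on the log2 scale (SE 0.30, limma adjusted p = 0.0222). Lcp65Ag1 had 1426, 1118 and 877 FPKM in 12-16 h mutants and 432, 361 and 933 FPKM in 12-16 h controls, and Lcp65Ag2 had 1203, 988 and 753 FPKM in the mutants and 407, 363 and 892 FPKM in the controls. In both, control replicate 3 lay above mutant replicate 3, so the groups overlapped, and the log2 fold changes were 1.09 and 0.92 (limma adjusted p = 0.0145 and 0.0178). Cpr64Ad had 279, 378 and 275 FPKM in mutants and 154, 131 and 236 FPKM in controls and did not pass (limma adjusted p = 0.186).

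Control replicate 3 held the highest control value in 38 of the 40 called genes and exceeded the lowest mutant in 10 of them. Mutant replicate 3 held the lowest mutant value in 33 of the 40. Without control replicate 3, 45 genes rose and 0 fell (18.1% of all genes were higher), and the median log2 fold change of the 67 genes was 1.17. The log2 fold changes of the 6 genes named for their rises were then 1.99 to 2.27. Leaving out each of the 6 samples of that stage in turn gave 31 to 45 called genes. The fit to the 6 samples of that stage alone called 14 genes, all higher, where it called 11.4% of all genes (7.86% higher, 3.54% lower). Of the 6 named genes, Cpr47Eg, Cpr65Ec and Cpr65Ax1 did not pass in that fit (limma adjusted p 0.0653 to 0.0857).

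Transcripts of genes listed as maternally supplied also differed between the genotypes at that stage. RNA loaded by the mother and RNA made by the embryo cannot be told apart in these samples. The 7 maternally supplied genes listed (bcd, osk, CycB, CycB3, bora, gcl and stg) summed to 285, 561 and 315 FPKM in 12-16 h mutants and to 81.9, 95.5 and 73.1 FPKM in 12-16 h controls. Of the 6 tested, 4 rose and 0 fell (18% of all genes were higher), with a median log2 fold change of 3.29. The others, gcl (0.11) and stg (-0.27), did not pass. At 16-20 h 5 rose and 0 fell (8.64% of all genes were higher), with sums of 203 to 299 FPKM in mutants and 71.9 to 99.9 FPKM in controls. Of the muscle and neuronal markers listed, 0 of 3 and 0 of 2 tested were called at 12-16 h, with medians of 0.05 and -0.01. The part of the maternally supplied genes in the cuticle gene result was not tested.

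**Figure D3:**
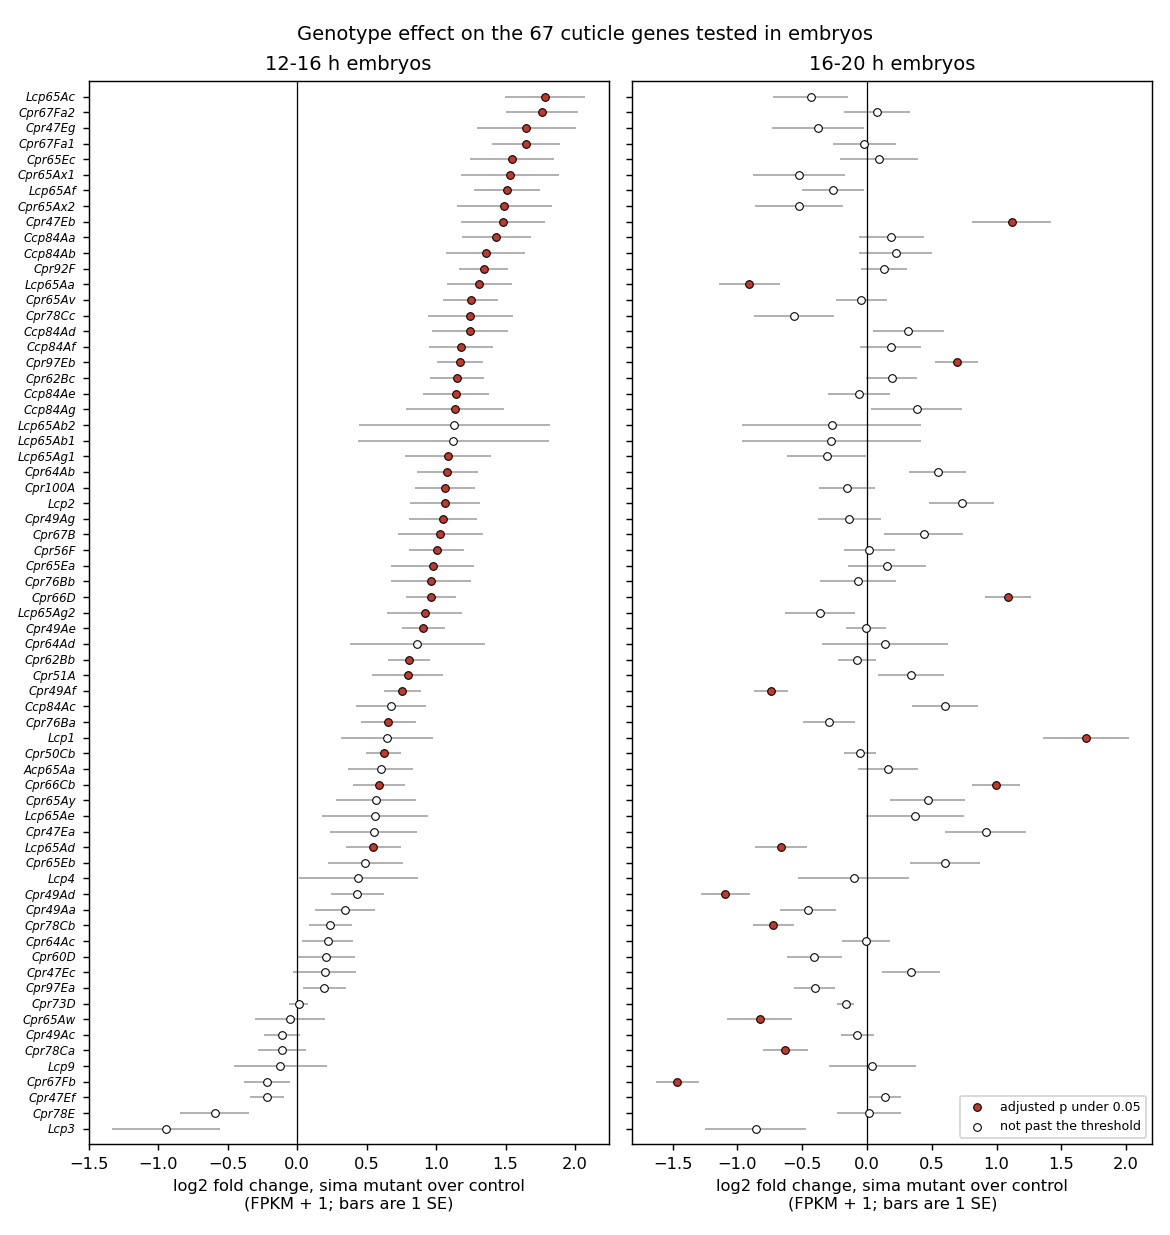
Log2 fold change of sima mutants over controls for the 67 tested cuticle genes at 12-16 h (left) and 16-20 h (right), in 1 order, with bars of 1 SE and filled points for limma adjusted p under 0.05. On the left the 40 filled points lie right of 0, and on the right 5 lie right of 0 and 8 left of it.

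At 16-20 h the direction was split. Of the 67 tested genes 13 differed, 5 higher and 8 lower in mutants, and 15.8% of all genes tested were called (8.64% higher and 7.18% lower). The median log2 fold change was -0.02 over the 67 genes and -0.03 over all genes tested. Values did not overlap for 11 genes that were higher in mutants (19.4% of all genes) and for 24 that were lower (21.5% of all genes), so 35.8% of the tested cuticle genes had all mutant values below all control values. Without control replicate 1 the count was 8 (4 higher, 4 lower), and without mutant replicate 3 it was 7 (3 higher, 4 lower). For these fits the share of all genes was not counted.

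The largest rise was in Lcp1, a larval cuticle protein gene, with 10.5, 9.61 and 10.5 FPKM in mutants and 1.73, 2.52 and 3.33 FPKM in controls. Its log2 fold change was 1.69 (SE 0.33, limma adjusted p = 0.00368). Cpr66D (14.6, 15.9 and 17.7 FPKM in mutants, 6.57, 7.30 and 7.14 FPKM in controls) and Cpr66Cb (28.3, 29.9 and 30.9 FPKM in mutants, 14.1, 14.6 and 14.4 FPKM in controls) had log2 fold changes of 1.09 and 0.99 (limma adjusted p = 0.00130 and 0.00271). These are genes that had already peaked at 12-16 h, where their fold changes were 0.96 and 0.59. In the 3 genes the groups did not overlap. With a pseudocount of 0.1, Lcp1 and Cpr66Cb lost their calls (limma adjusted p = 0.184 and 0.234).

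Cpr47Eb had 99.8, 153 and 116 FPKM in 16-20 h mutants and 51.2, 59.2 and 55.5 FPKM in 16-20 h controls (log2 fold change 1.12, SE 0.30, limma adjusted p = 0.0211). Cpr97Eb had 19.5, 21.2 and 25.5 FPKM in mutants and 13.7, 12.8 and 13.1 FPKM in controls (log2 fold change 0.69, SE 0.17, limma adjusted p = 0.0119). Neither overlapped between groups. Cpr47Eb lost its call without control replicate 1 or 3 or mutant replicate 2 or 3 (limma adjusted p 0.0598 to 0.0835), and Cpr97Eb without mutant replicate 3 (limma adjusted p = 0.0661). Both were also lost with quantile normalization (limma adjusted p = 0.0792 for Cpr47Eb and 0.0503 for Cpr97Eb) and with a pseudocount of 0.1 (0.190 and 0.370).

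The largest fall at 16-20 h was in Cpr67Fb, a gene of low level, with 0.291, 0 and 0.277 FPKM in mutants and 2.43, 1.96 and 2.41 FPKM in controls. Its log2 fold change was -1.46 (SE 0.16, limma adjusted p = 6.51e-05). Cpr49Ad had 4.33, 8.59 and 4.84 FPKM in mutants and 10.9, 14 and 15.3 FPKM in controls (log2 fold change -1.09, SE 0.19, limma adjusted p = 0.00175). In both genes each mutant value lay below each control value. Cpr49Af had 37.7, 35.2 and 36.1 FPKM in mutants and 59.3, 57.8 and 67.8 FPKM in controls (log2 fold change -0.74, SE 0.13, limma adjusted p = 0.00196). With a pseudocount of 0.1, Cpr49Ad and Cpr49Af did not pass (limma adjusted p = 0.0608 and 0.286).

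Cpr78Cb, at 75.9, 64.0 and 62.6 FPKM in mutants and 119, 107 and 109 FPKM in controls, fell by 0.72 on the log2 scale (SE 0.16, limma adjusted p = 0.00625). Lcp65Aa fell by 0.91 (SE 0.24, limma adjusted p = 0.0170). Lcp65Ad had 5.36, 4.01 and 5.91 FPKM in mutants and 9.10, 8.20 and 8.43 FPKM in controls and fell by 0.66 (SE 0.20, limma adjusted p = 0.0356). None of the 3 overlapped between groups. Lcp65Aa lost its call without control replicate 1 or mutant replicate 2 or 3 (limma adjusted p 0.0551 to 0.0752), and Lcp65Ad without any 1 of the 6 samples (limma adjusted p 0.0525 to 0.133). With a pseudocount of 0.1 neither passed (limma adjusted p = 0.398 for Lcp65Aa and 0.352 for Lcp65Ad), and without the filter Lcp65Ad did not (0.0511). Cpr78Ca and Cpr65Aw, the other members that fell, had fold changes of -0.63 and -0.83.

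The most abundant cuticle genes at 16-20 h were each lower in all mutant samples without passing the test in the fit to all embryos. Lcp65Ag2 had 9518, 9081 and 9108 FPKM in mutants and 11493, 11913 and 12241 FPKM in controls, Cpr65Ax1 had 4229, 4182 and 3694 FPKM in mutants and 5475, 5801 and 6129 FPKM in controls, and Cpr47Eg had 2500.2, 2698 and 2589 FPKM in mutants and 3211, 3380.1 and 3526 FPKM in controls. With Lcp65Ag1, their log2 fold changes were -0.31 to -0.52 with SE of 0.27 to 0.36 (limma adjusted p 0.356 to 0.542). The SE comes from a spread shared by the 6 embryo groups, and the median SD of the 67 genes was 0.294 in mutants and 0.490 in controls at 12-16 h, against 0.148 in mutants and 0.0855 in controls at 16-20 h. The fit to the 6 samples of the stage alone called 25 of the 67 genes, 10 higher and 15 lower, where it called 18.5% of all genes (10.4% higher, 8.17% lower). In that fit Cpr65Ax1 and Cpr47Eg passed as lower (limma adjusted p = 0.0160 and 0.0236), and Lcp65Ag1 and Lcp65Ag2 did not pass.

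Over the 3 embryo stages the genotype effect itself changed for 28 of the 67 genes by limma's moderated F test, against 14.6% of all genes tested. In Lcp65Aa it was 1.31 at 12-16 h and -0.91 at 16-20 h, and in Cpr49Af 0.76 and -0.74, and the difference between these 2 stages passed in both (limma adjusted p = 0.00143 and 0.000593). In Lcp1 it was -0.20 at 8-12 h, 0.65 at 12-16 h and 1.69 at 16-20 h (F test, limma adjusted p = 0.0377), and its difference between the last 2 stages did not pass (limma adjusted p = 0.162). The count was 15 without control replicate 1 of 12-16 h, 18 without mutant replicate 1 and 14 without mutant replicate 2 of that stage, and 18 without control replicate 2 or 3 of 16-20 h. The share of all genes was not counted in these fits.

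Genes of cuticle making outside these families were compared from lists. Of the Tweedle genes, a separate family of cuticle proteins, 12 of 21 tested rose at 12-16 h and 0 fell (18% of all genes were higher). Among the rises were TwdlN (log2 fold change 1.88) and TwdlP (1.79). At 16-20 h 3 of the Tweedle genes rose, among them TwdlF (3.31), and 0 fell. Of all genes, 8.64% were higher and 7.18% lower at 16-20 h. Of 23 tested genes of chitin synthesis, cuticle assembly, tanning and the moulting hormone response, 4 rose and 7 fell at 12-16 h, where 18% of all genes were higher and 13.6% lower. The rises were in reb (0.31), e (0.50), Eip74EF (0.40) and zye (0.63). Falls were seen in mey (-0.70), nyo (-0.63), neo (-0.61), vvl (-0.48) and ple, the tyrosine hydroxylase of cuticle tanning (-0.57). The chitin synthase gene kkv (-0.34) and knk, which is needed to organise chitin (-0.56), fell as well. At 16-20 h 2 of the 23 rose, kkv (0.39) and Gasp, a chitin-binding protein gene (0.91), and 3 fell, reb (-0.46), e (-0.42) and Cda9 (-0.87). The rises among the 23 genes were near the share of all genes at both stages. The median log2 fold change at 12-16 h was 1.01 over the Tweedle genes and -0.11 over these 23 genes.

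In larvae the 95 genes summed to 25181, 11982 and 13292 FPKM in the mutants and to 14096, 19450 and 9765 FPKM in the controls, which overlapped. The larval values come from a separate table whose scaling against the embryo table is not given, so these levels are not compared with those of embryos. Only 2 of 60 tested genes differed, and 9.40% of all 8619 genes tested were called (4.15% higher, 5.24% lower). Values did not overlap for 2 genes that were higher in mutants (14.7% of all genes) and 6 that were lower (20.1% of all genes). Cpr11B had 7.25, 6.92 and 9.93 FPKM in mutants and 3.24, 2.33 and 1.41 FPKM in controls and rose by 1.46 on the log2 scale (SE 0.23, limma adjusted p = 0.0189). Cpr49Ad had 16.6, 15.7 and 11.6 FPKM in mutants and 29.3, 43.0 and 45.9 FPKM in controls and fell by 1.36 (SE 0.21, limma adjusted p = 0.0175). Neither gene overlapped between the groups.

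Both larval calls were lost without control replicate 2 (limma adjusted p 0.0648 for Cpr11B and 0.0651 for Cpr49Ad) or mutant replicate 2 (0.0534 and 0.0551). Cpr11B was lost without mutant replicate 3 (limma adjusted p = 0.0587), and so was Cpr49Ad (limma adjusted p = 0.0522), which was lost without control replicate 3 as well (limma adjusted p = 0.0527). With 1 of these libraries left out, 0 to 2 genes were called. Cpr49Ad is also 1 of the genes that fell in 16-20 h mutant embryos.

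The larval cuticle genes spread widely between replicates of 1 group. The median SD of log2(FPKM + 1) over the 60 genes was 0.946 in mutants and 0.688 in controls, against 0.141 in mutants and 0.144 in controls over all genes tested. An SD of at least 1 was found for 28 of the 60 genes in mutants and 16 in controls. The corresponding shares were 46.7% and 26.7%, where 2.76% and 1.37% of all genes tested reached that spread.

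**Figure D4:**
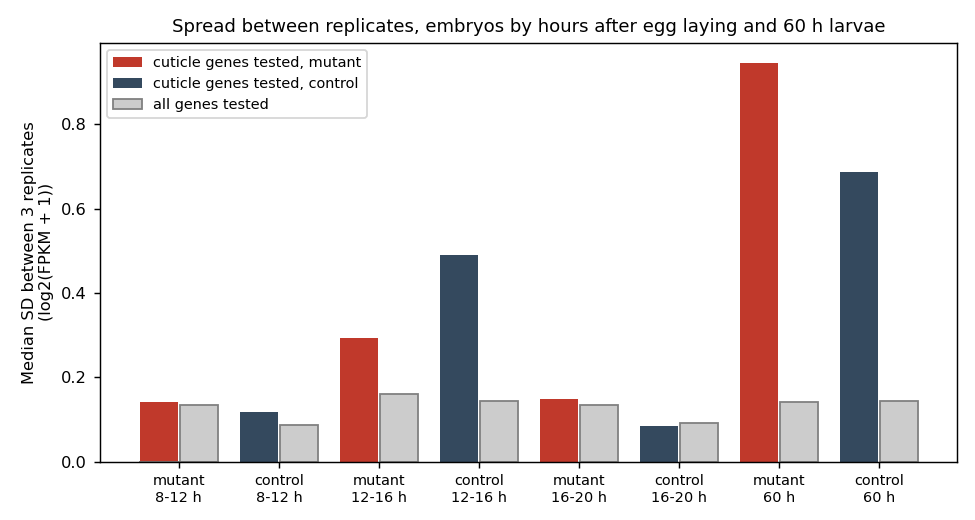
Median SD of log2(FPKM + 1) between the 3 replicates of each group, for the tested cuticle genes (coloured) beside all genes tested (grey). In larvae the bars of the cuticle genes reach 0.946 in mutants and 0.688 in controls, while the grey bars stay at or below 0.161 in every group.

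Different genes were high in different larval samples. The larval cuticle protein gene Lcp9 had 227, 0 and 9.43 FPKM in mutants and 4.97, 12.4 and 3.31 FPKM in controls. Lcp65Ab1 had 2308, 83.0 and 456 FPKM in mutants and 129.6, 277 and 57.4 FPKM in controls. Lcp4 had 1273, 240.1 and 423 FPKM in mutants and 332, 427 and 235 FPKM in controls. In these 3 genes mutant replicate 1 was the highest of the 6 samples, and the groups overlapped.

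Other genes were lowest in that sample and highest in control replicate 1. Cpr65Ea had 0.941, 8.36 and 1.11 FPKM in mutants and 178, 18.7 and 10.2 FPKM in controls. Cpr64Ab had 0.247, 4.08 and 0.407 FPKM in mutants and 43.0, 4.90 and 4.87 FPKM in controls. Cpr64Ad had 3.30, 129 and 20.3 FPKM in mutants and 249.9, 101 and 82.4 FPKM in controls. The mutants lay below the controls in the first 2, yet with log2 fold changes of -3.34 (SE 1.14) and -2.47 (SE 0.93) the differences did not pass (limma adjusted p = 0.121 and 0.150). Cpr65Ea and Cpr64Ad are 2 of the 4 highest members in 12-16 h embryos.

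Mutant replicate 1 held the highest value of the 6 samples in 17 of the 60 genes and the lowest in 16. Control replicate 1 held the highest in 15 and control replicate 3 the lowest in 27. The most abundant members did not pass the test either. Lcp65Ag1 had 6045, 3955 and 3743 FPKM in mutants and 4300.1, 5858 and 3237 FPKM in controls, and Lcp65Ag2 had 3552, 2793 and 2476 FPKM in mutants and 3488, 4600.2 and 2624 FPKM in controls. Cpr65Ax1 had 2277, 1645 and 1551 FPKM in mutants and 1716, 2652 and 1023 FPKM in controls, and Cpr65Ax2 had 1310.2, 947 and 893 FPKM in mutants and 1013, 1557 and 609.6 FPKM in controls. The groups overlapped in all 4 genes.

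**Figure D5:**
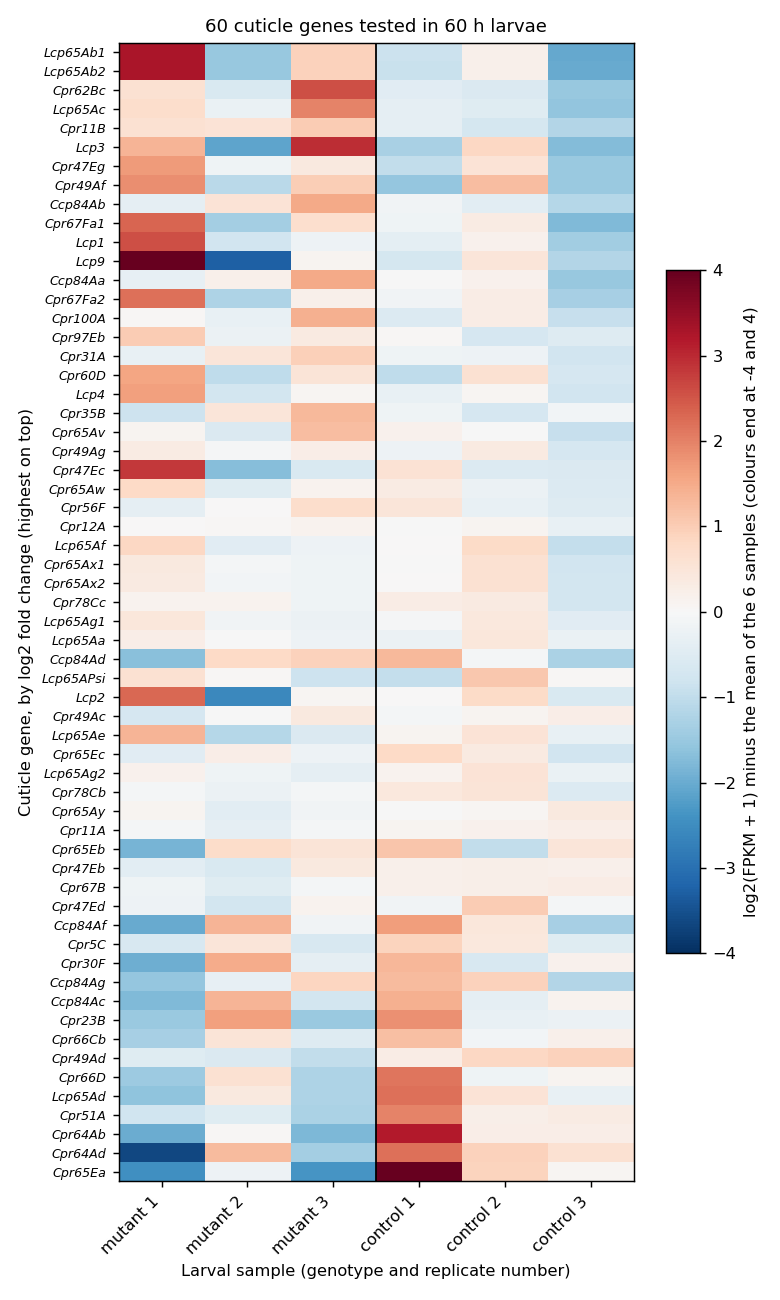
Log2(FPKM + 1) of the 60 tested cuticle genes in each larval sample (columns, mutants left of controls), minus the gene's mean over the 6 samples; red is higher and blue lower, and colours end at -4 and 4. Strong colours change from replicate to replicate within a group. Mutant replicate 1 carries many of the highest and lowest values, control replicate 1 many of the highest and control replicate 3 many of the lowest.

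Some markers of other tissues differed between the larval groups too. The muscle myosin gene Mhc had 236, 224 and 195 FPKM in mutants and 334, 356 and 358 FPKM in controls (log2 fold change -0.68, limma adjusted p = 0.0201), and 3 of the 5 muscle genes listed fell. The fat body storage protein gene Lsp1beta had 1043, 127 and 481 FPKM in mutants and 1755, 1946 and 2069 FPKM in controls and did not pass (limma adjusted p = 0.104), although the groups did not overlap. Of the 3 neuronal genes tested, 2 rose. Sgs3, which marks late third-instar salivary glands, was listed at 0 in all 6 larval samples. The part of these tissues in the larval cuticle gene levels was not tested. Of the Tweedle genes 3 of 22 tested fell in larvae and 0 rose, with a median log2 fold change of -2.27. They summed to 568 to 643 FPKM in mutants and to 1515, 1728 and 597 FPKM in controls. Control replicate 3 thus lay within the mutant range. Of all genes tested in larvae, 5.24% were lower and 4.15% higher.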

How the data were processed

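RNA was sequenced from 24 whole-animal samples, 18 of embryos and 6 of larvae. Per the labels' protocols, 2 µg of total RNA went into stranded mRNA libraries. The authors deposited FPKM values (fragments per kilobase of gene, scaled to library size), in 1 table for embryos and 1 for larvae, with replicates not pooled. The submitters' processing notes name BDGP6, featureCounts and DESeq2; the aligner and the FPKM denominator are not given in the sources used here.

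Gene rows were matched to symbols of the BDGP6.54 annotation, which also gave the coordinates: 10865 of 10889 in embryos and 17855 of 17895 in larvae. The last row of the embryo table is incomplete and was not used. From steps of single fragments and annotated lengths the denominator was estimated at 6600700 to 13403600 fragments per embryo sample and 10276200 to 15196000 per larval sample.

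Genes that reached 1 FPKM in 3 or more samples of their table entered the test, on log2(FPKM + 1) with limma 3.58.1 in R 4.3.3 (eBayes with trend), with 1 fit per table. P-values were adjusted by Benjamini-Hochberg over all genes tested, with a threshold of 0.05. A moderated F test in limma asked whether the genotype effect differed between stages. The fit was tested on simulated data. Alternatives were another pseudocount, other filters and scalings, no trend, a fold-change minimum, stage-only fits, a replicate block and leaving out each replicate. Named with values were, per genotype comparison, up to 6 rises and 6 falls past the threshold whose groups did not overlap, and the 4 highest members per stage; members and lists were chosen with earlier results of these data known. Other members whose values are given were chosen after their values were seen. Tables were prepared with Python 3.11.15.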

Additional observations from a re-analysis of the deposited data

Results flagged for a closer look

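The genotype effect on 28 of the 67 tested cuticle genes differed over the 3 embryo stages (moderated F test in limma). Among the genes named with values, the effect at 16-20 h minus that at 12-16 h (mutant over control, log2) was most negative in Lcp65Aa (-2.22), Lcp65Ac (-2.22), Cpr65Ax1 (-2.06) and Cpr47Eg (-2.03). It was -1.69 in Cpr67Fa2, -1.67 in Cpr67Fa1, -1.53 in Cpr49Ad, -1.50 in Cpr49Af and -1.45 in Cpr65Ec. It was -1.25 in Cpr67Fb, -1.21 in Lcp65Ad, -0.96 in Cpr78Cb and -0.37 in Cpr47Eb. Lcp1 alone among these 14 genes had a positive difference, 1.04. Taken alone, the difference between these 2 stages did not pass in Cpr47Eb (limma adjusted p = 0.612) or Lcp1 (0.162), and it passed in the other 12. Those 12 genes were named for a rise at 12-16 h or a fall at 16-20 h, and such a choice favours a negative difference. Their shared direction is therefore not a result about the family.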

How the results depend on the processing

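Several counts of called genes moved by over 1.5 times. With a pseudocount of 0.1, 5 genes were called at 8-12 h, 3 at 16-20 h, and 13 genes changed their genotype effect between stages. The pseudocount, the scalings, the fold-change minimum and the fits without 1 sample were run without a count over all genes. The fit without control replicate 3 of 12-16 h was the exception. Fits to the samples of 1 comparison gave 0 calls at 8-12 h (2 in the fit to all embryos), 14 at 12-16 h and 25 at 16-20 h. These fits called 1.19%, 11.4% and 18.5% of all genes at the 3 stages. Requiring a change of at least 1 (log2) left 5 calls at 16-20 h. Same-numbered mutant and control samples did not deviate together (correlations -0.39 to 0.10), so the numbers were not taken as pairs. With the replicate block, 1 gene was called at 8-12 h, 34 at 12-16 h, 13 at 16-20 h and 0 in larvae, and 7 changed their effect between stages. Of all genes, the block called 2.90% at 8-12 h, 24.7% at 12-16 h and 11.8% at 16-20 h. The gene called with the block at 8-12 h was Cpr65Eb, and of the named calls the block lost Cpr51A (limma adjusted p = 0.0644), Ccp84Ac (0.0501), Lcp65Aa (0.0781) and, in larvae, Cpr11B (0.0930) and Cpr49Ad (0.0879). Leaving out 1 replicate gave 0 to 5 genes at 8-12 h, 31 to 45 at 12-16 h, 7 to 11 at 16-20 h, 0 to 2 in larvae and 14 to 41 for the stage difference. The cause of these moves was not tested. None of the 21 named results reversed under the alternatives run. The naming rule required groups that did not overlap, so only the other scalings could have reversed a sign. Levels near 0 at 8-12 h and in 16-20 h mutants, the shallowest group, rest on few fragments, and 3 samples per group limit each test.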
